A study of Mus musculus with 27 samples.

Results

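The data describe the forebrain of mice at postnatal day 4 (P4), with colonized pools set against the germ-free pool of the same region. The members were the pools labelled as hippocampus or cortex at P4, which are 6 of the 27 pools of the series, 1 per treatment group and region. Each pool held RNA from 5 male Swiss Webster mice, 2 µg from each mouse, and has 1 threshold cycle (CT) per well of a 96-well PCR array for synaptic plasticity genes. By the methods the regions were dissected from the same brains, so the hippocampus and cortex pools of a group may hold the same mice. GF mice were bred germ-free and were given sterile phosphate buffered saline. CONV mice were born to germ-free dams that received fecal slurry from specific pathogen free mice after the birth, were kept with used bedding of those donors, and were given sterile saline as a sham treatment. BIF mice were given *Bifidobacterium dentium*, *B. longum* subsp. *infantis*, *B. breve* and *B. bifidum* by mouth, and their dams received the same mixture. Each treatment group lived in an isolator of its own, and the 6 pools were run on 6 different plates, so treatment, isolator and plate cannot be told apart.

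Synaptic plasticity is the lasting change in the strength of a synapse with use. Glutamate opens AMPA and NMDA receptors on the receiving neuron, calcium and second messengers then act on kinases and phosphatases, and these reach transcription factors and the immediate early genes. In the first days after birth the rodent forebrain is still forming most of its synapses, and neurotrophins such as BDNF support this growth.

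The level of a gene is given as its delta CT, the CT of the gene minus that of *Gapdh* in the same pool. A lower delta CT means more transcript, with about a doubling for each cycle. The log2 fold change is the delta CT of the GF pool minus that of the colonized pool, so a negative value means a lower level in the colonized mice. Levels are not compared between genes, because each gene has its own primers, except in the sums of marker genes, where equal efficiency was assumed. The 84 pathway genes had CTs between 20.13 and 34.64 in the 6 pools, and 0 of them were at the detection limit of 35, whereas the genomic DNA control was at the limit in all 6. The CT of *Gapdh* was 20.32, 19.80 and 20.36 in the GF, CONV and BIF hippocampus and 19.66, 19.57 and 19.41 in the cortex. The number of templates behind a CT is unknown.

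There was 1 pool per group, so no difference has a replicate check and no test was made. The smallest p that an exact permutation of the GF label within both regions allows for a single gene is 0.111. Only the scatter of the PCR could be measured, from the 3 wells of each of the reverse transcription and positive PCR controls. The SD of a CT was 0.129 cycles over the 6 pools, which gives a log2 fold change of 4 CTs an SD of 0.258. The 1.5-fold threshold equals a log2 value of 0.585, or 2.27 times that scatter. The positive PCR control of the CONV hippocampus spread most, with an SD of 0.346 cycles, followed by that of the GF cortex with 0.235. In the other pools it was 0.046 to 0.09, so the pooled SD rests mainly on those pools but is used for all 4 comparisons. The reverse transcription control alone gave an SD of a CT of 0.0284. Over genes, the SD of the log2 fold change between the BIF and CONV pools was 0.271 for the 41 genes with a mean CT under 25 and 0.581 for the 5 genes with a mean CT of 30 or above.

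The labels were checked with genes that tell forebrain from cerebellum, while hippocampus and cortex were not told apart by a gene of their own. *Camk2a*, a kinase gene of forebrain excitatory neurons, had a delta CT of 0.91 to 2.82 in the 6 pools and of 5.59 to 6.48 in the 3 cerebellum pools at P4. *Gabra5*, a GABA receptor subunit gene used mainly in the forebrain, had 2.25 to 3.40 against 4.71 to 7.45. *Grm4* and *Grin2c*, receptor genes of cerebellar granule cells, were at 6.52 to 7.37 and 10.42 to 11.25 in the forebrain pools and at 5.83 to 6.31 and 9.43 to 9.63 in the cerebellum, so that the ranges did not overlap for any of the 4 genes. The array holds no gene that defines a cell type. In bulk RNA, fewer cells of a type and less RNA per cell cannot be told apart.

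Of the 84 pathway genes, 28 (33.3%) had a lower level in all 4 colonized pools than in the GF pool of their region and 2 (2.38%) a higher level. For a single gene, exchangeable GF labels within independent regions give each of these directions with a probability of 0.111. When *Gapdh* was replaced by the mean CT of all 5 reference genes, 17 (20.2%) were lower and 4 (4.76%) higher. Both references gave 14 genes as lower (16.7%) and 2 as higher (2.38%). The lower genes included *Bdnf*, *Cnr1*, *Gabra5*, *Gnai1*, *Gria4*, *Grin2a*, *Nfkbib*, *Nos1*, *Ntrk2*, *Plcg1*, *Ppp1cc* and *Prkg1*, and the higher ones were *Fos* and *Timp1*. They include a neurotrophin and its receptor, subunits of 3 kinds of transmitter receptor, and enzymes that carry the signal inside the cell. The well of *Gria4* was named by place alone, that is from the alphabetical order, and those of *Cnr1*, *Ntrk2*, *Ppp1cc* and *Prkg1* from listed values that other wells also fit. The comparisons of a region share a GF pool, so a GF pool that stands apart moves both of them. The delta CT of the GF cortex lay outside the range of all 26 other pools of the series in 16 of the 84 genes, below it in 14 and above it in 2. Among these were *Cdh2*, *Fos*, *Gnai1*, *Grin2b*, *Grin2d*, *Grm7* and *Ntrk2*, of which only *Fos* was above. The GF hippocampus lay outside in 5 genes, and the colonized pools in 3 and 1 for the CONV and BIF hippocampus and in 1 and 2 for the cortex. The part of the GF cortex pool in the cortex results was not tested.

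Nearly all of these genes were within the PCR scatter of 0.258 in at least 1 comparison. With the scatter of the reverse transcription control alone (0.0568), chosen after seeing the data, 22 of the 28 genes lower with *Gapdh* reached it in all 4. Of the 14 lower genes, 7 differed by 1.5-fold or more in at least 1 comparison, as did 24 of all 84 genes, and only *Plcg1* differed by at least 0.258 in all 4 with *Gapdh*. With the mean of the 5 reference genes none of the 14 reached 0.258, while *Timp1* differed by at least 0.336 in all 4. The value of 0.258 is for a single reference gene, and the scatter with a mean of 5 was not computed. Of the 14, *Prkg1* then differed by at least 0.204 in all 4. With the pathway median as the reference, that is the middle CT of the 84 pathway wells, 11 of the 14 kept a lower level in all 4, and *Bdnf* and *Ppp1cc* were among those that did not. *Fos* and *Timp1* were higher in all 4 with each of the 4 references tried.

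**Figure D1:**
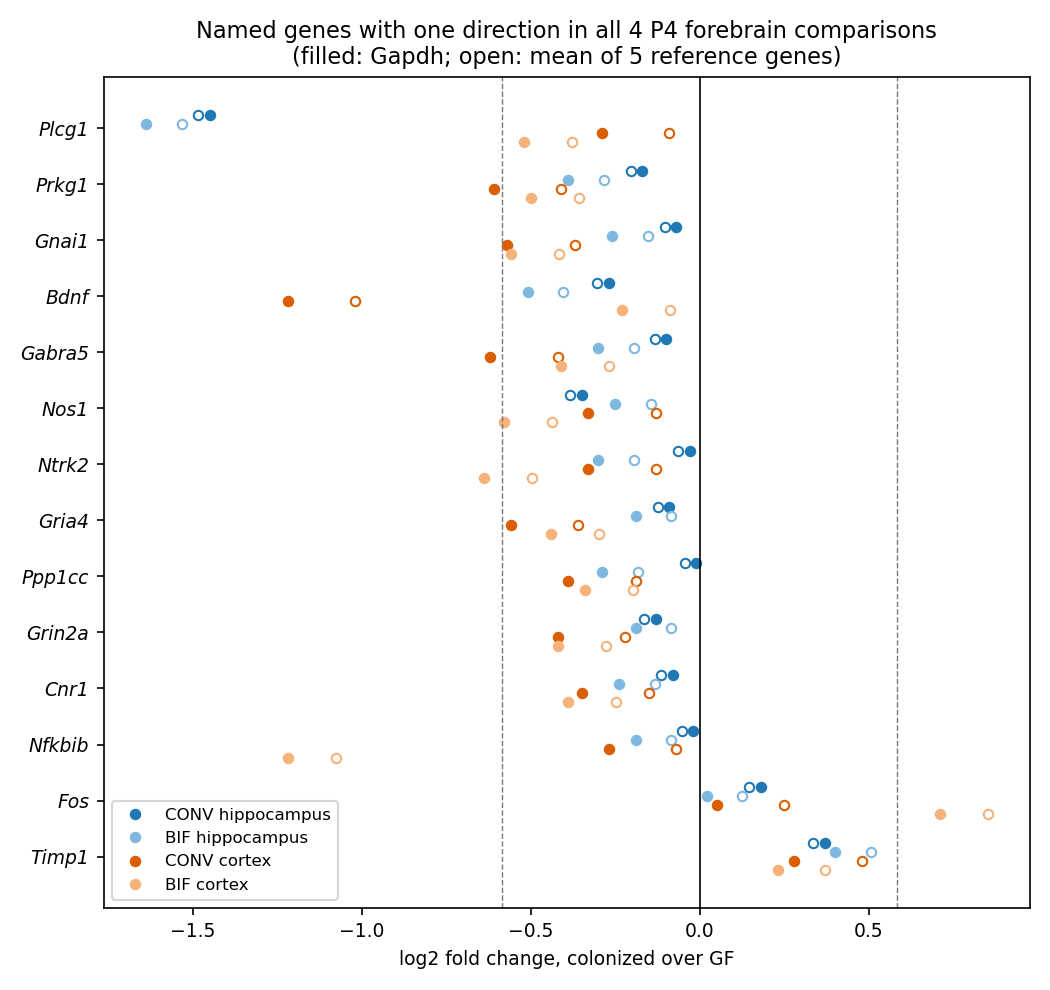
Log2 fold change of colonized over GF pools at P4 (horizontal axis) for 14 of the 16 genes with one direction in all 4 comparisons, with 1 point per comparison, filled for *Gapdh* and open for the mean of the 5 reference genes, and dashed lines at 1.5-fold. The hippocampus points of *Plcg1*, at -1.45 and -1.64, lie far to the left of its cortex points at -0.29 and -0.52.

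Among the enzymes of signalling, *Plcg1* had the largest median difference. It encodes phospholipase C gamma 1, which is recruited by receptor tyrosine kinases such as the BDNF receptor and makes second messengers that release calcium (chr2:160731310-160775760). Its delta CT was 2.22 in GF, 3.67 in CONV and 3.86 in BIF hippocampus, and 3.11, 3.40 and 3.63 in the same groups of the cortex. The GF hippocampus pool was set apart, since the other 26 pools of the series had 3.08 to 5.23. The level was 2.73-fold lower in CONV and 3.12-fold lower in BIF hippocampus, against 1.22-fold and 1.43-fold in the cortex. With the mean of the 5 reference genes the log2 fold changes in the cortex were -0.09 and -0.38. At P10 the log2 fold changes were above 0, at 0.34 and 0.44 in the CONV and BIF hippocampus and 0.37 and 0.35 in the cortex, and at P20 they were -0.33 and 0.02 and then 0.31 and 0.17.

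*Nos1*, the neuronal nitric oxide synthase gene, and *Prkg1*, a kinase gene that acts on the cyclic GMP made in response to nitric oxide, belong to one pathway. The delta CT of *Nos1* was 6.28 in GF, 6.63 in CONV and 6.53 in BIF hippocampus, and 5.88, 6.21 and 6.46 in the cortex. That of *Prkg1* was 6.28, 6.45 and 6.67 in the hippocampus and 6.81, 7.42 and 7.31 in the cortex. In both regions the GF pool had the highest level, and the log2 fold changes were -0.25 to -0.58 for *Nos1* and -0.17 to -0.61 for *Prkg1*. Only *Prkg1* in the CONV cortex passed the threshold, at 1.53-fold lower, and with the mean of the 5 reference genes its log2 fold change there was -0.41. At P10 the *Nos1* level had the opposite order, with log2 fold changes of 0.58 and 0.55 in the hippocampus and 1.02 and 0.90 in the cortex. At P20 they were -0.01 and 0.27 in the hippocampus and -0.30 and -0.28 in the cortex. *Prkg1* did not follow this order at P10, with -0.20 and 0.28 in the hippocampus and -0.26 and 0.14 in the cortex.

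*Gnai1* encodes an inhibitory G protein subunit that lowers cyclic AMP. Its delta CT was 2.46 in GF, 2.53 in CONV and 2.72 in BIF hippocampus, and 2.33, 2.90 and 2.89 in the cortex. In the cortex this made it 1.48-fold and 1.47-fold lower, just inside the threshold, while the log2 fold change of the CONV hippocampus was -0.07. *Ppp1cc*, a catalytic subunit of protein phosphatase 1, had a log2 fold change of -0.01 in the CONV hippocampus and of -0.29 to -0.39 in the other comparisons.

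BDNF acts on neurons through TrkB, the product of *Ntrk2*. The delta CT of *Bdnf* was 5.88 in GF, 6.15 in CONV and 6.39 in BIF hippocampus, and 7.85, 9.07 and 8.08 in the cortex. The CONV cortex was far from the other cortex pools, at 2.33-fold lower than GF, and the BIF cortex was 1.17-fold lower. This last value turned from -0.23 to 0.13 on the log2 scale with the pathway median. *Ntrk2* had 2.17, 2.20 and 2.47 in the hippocampus and 1.08, 1.41 and 1.72 in the cortex. Here the BIF cortex was 1.56-fold lower, and the log2 fold change of the CONV hippocampus was -0.03. In the cortex the pool lowest for the ligand was thus CONV and the pool lowest for the receptor BIF, while in the hippocampus BIF was lowest for both.

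Receptors for GABA, glutamate and endocannabinoids were also among the lower genes. *Gabra5* had a delta CT of 2.25 in GF, 2.35 in CONV and 2.55 in BIF hippocampus, and 2.78, 3.40 and 3.19 in the cortex. The value of the GF hippocampus was the lowest of all 27 pools, although the nearest was 2.29. The NMDA receptor subunit gene *Grin2a*, whose product replaces other subunits as synapses mature, had 5.07, 5.20 and 5.26 in the hippocampus and 5.61, 6.03 and 6.03 in the cortex. The well placed as *Gria4*, an AMPA receptor subunit gene, had 4.58, 4.67 and 4.77 and then 4.08, 4.64 and 4.52. For each of these the GF pool was the lowest in cycles and the gap with *Gapdh* was wider in the cortex than in the hippocampus. With the pathway median this order turned for BIF in all 3, with -0.29 in the hippocampus against -0.05 in the cortex for *Gabra5*, -0.18 against -0.06 for *Grin2a* and -0.18 against -0.08 for *Gria4*. *Cnr1*, the gene of the cannabinoid receptor CB1, had log2 fold changes of -0.08 and -0.24 in the hippocampus and of -0.35 and -0.39 in the cortex.

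The genes with a higher level were *Timp1*, which encodes an inhibitor of matrix metalloproteinases, and the immediate early gene *Fos*. *Timp1* had a delta CT of 9.97 in GF, 9.60 in CONV and 9.57 in BIF hippocampus, and 9.71, 9.43 and 9.48 in the cortex. The CONV and BIF pools of a region were close to each other, with a log2 fold change of BIF over CONV of 0.03 in the hippocampus and -0.05 in the cortex, and each was 1.17-fold to 1.32-fold higher than GF. *Fos* had 8.47, 8.29 and 8.45 in the hippocampus and 9.47, 9.42 and 8.76 in the cortex, where the BIF pool was 1.64-fold higher and the CONV pool 1.04-fold higher. *Nfkbib*, which encodes an inhibitor of NF-kappa-B, is a lower gene that also rests on 1 pool, with a level 2.33-fold lower in the BIF cortex and log2 fold changes of -0.02 to -0.27 in the other comparisons.

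**Figure D2:**
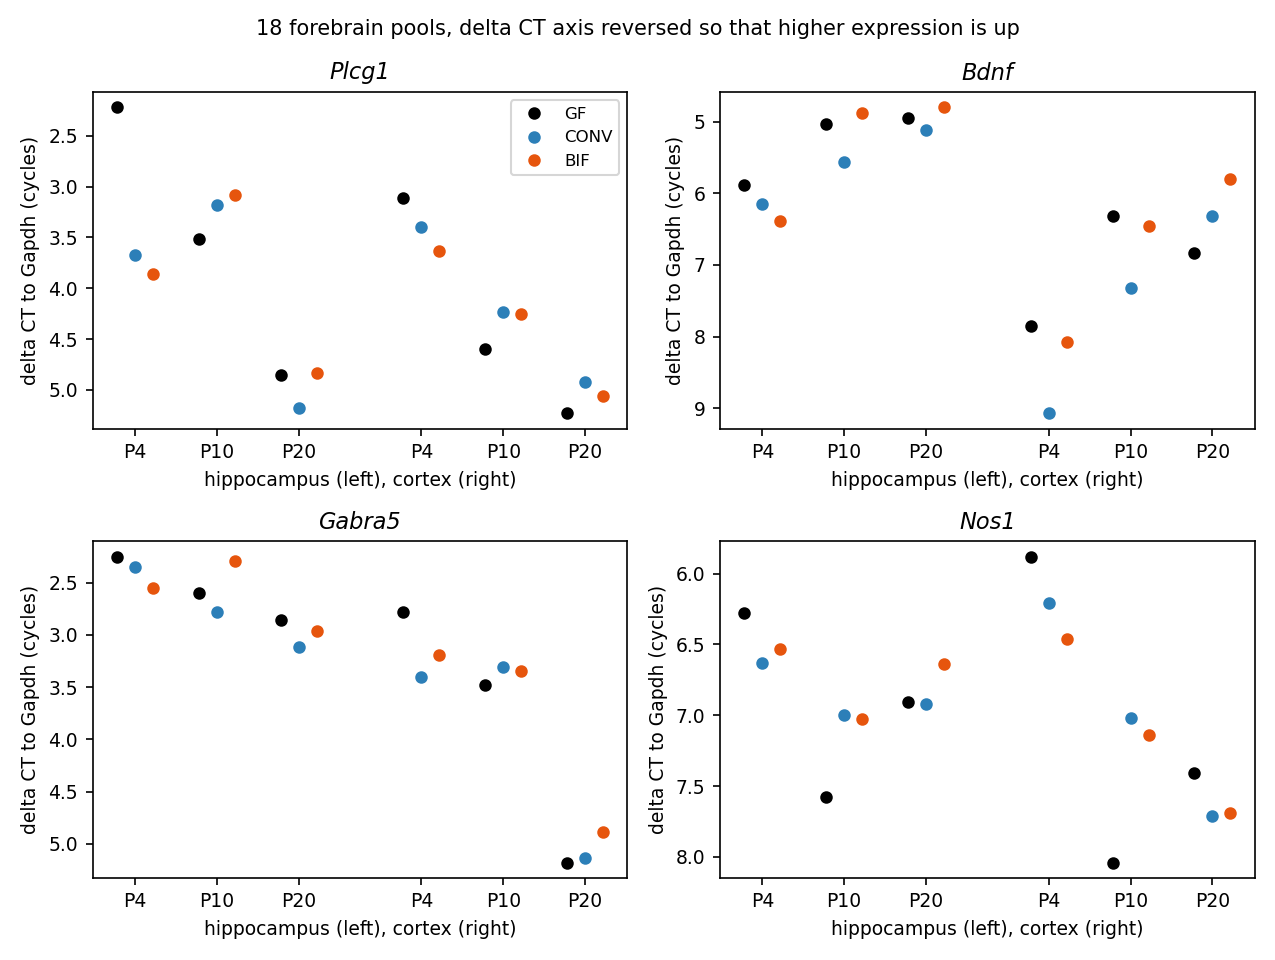
Delta CT to *Gapdh* in cycles (vertical axis, reversed) of *Plcg1*, *Bdnf*, *Gabra5* and *Nos1* in the 18 hippocampus and cortex pools at P4, P10 and P20, with 1 point per pool. The GF hippocampus at P4 has a *Plcg1* value of 2.22, above every other point of that panel, and the GF pool is the highest of its region at P4 in each panel.

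Several of these genes are known targets of activity, and CREB is a transcription factor that carries such signals to promoters. The RefSeq windows (build GRCm38.p6) of the 250 bases before the start site were searched on both strands for the CREB site TGACGTCA and for its core TGACG, which it contains. Of the 12 genes chosen by size among those with one direction, 10 had a window, with 17 windows in all. The core was in 1 window each of *Bdnf*, *Nos1* and *Timp1*, and the full site was in 0 windows. Among all 32851 windows 17.8% held the core and 1.55% the full site. *Fos*, added after its values were seen, held the core at 2 places. The windows are printed because their genes stand for both directions, all on the plus strand, with the core or its reverse complement in capitals, at chr2:109692186-109692435 for 1 of the 7 windows of *Bdnf*, chr5:117866589-117866838 for *Nos1*, chrX:20869916-20870165 for *Timp1* and chr12:85473640-85473889 for *Fos*.
Bdnf: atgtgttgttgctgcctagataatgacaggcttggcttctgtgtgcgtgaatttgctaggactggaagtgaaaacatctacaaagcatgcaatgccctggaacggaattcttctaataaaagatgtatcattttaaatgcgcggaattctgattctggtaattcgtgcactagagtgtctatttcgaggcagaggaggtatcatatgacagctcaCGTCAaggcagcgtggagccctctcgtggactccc
Nos1: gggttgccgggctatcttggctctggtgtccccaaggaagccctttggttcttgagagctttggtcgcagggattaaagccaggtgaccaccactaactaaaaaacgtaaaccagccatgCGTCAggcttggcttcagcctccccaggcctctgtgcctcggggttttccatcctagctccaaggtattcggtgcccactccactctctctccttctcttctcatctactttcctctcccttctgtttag
Timp1: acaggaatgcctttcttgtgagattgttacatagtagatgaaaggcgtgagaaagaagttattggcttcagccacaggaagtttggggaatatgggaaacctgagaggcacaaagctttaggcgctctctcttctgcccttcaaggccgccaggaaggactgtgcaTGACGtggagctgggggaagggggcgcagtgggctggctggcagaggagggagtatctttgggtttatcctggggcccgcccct
Fos: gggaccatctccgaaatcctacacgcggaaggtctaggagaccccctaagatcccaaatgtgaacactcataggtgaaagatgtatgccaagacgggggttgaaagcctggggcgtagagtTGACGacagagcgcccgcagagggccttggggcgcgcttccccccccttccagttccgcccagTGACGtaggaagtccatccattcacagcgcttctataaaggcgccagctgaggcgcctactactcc
A match is a run of letters in a window. *Bdnf* and *Nos1* were lower and *Timp1* and *Fos* higher in the colonized pools, so the core stood before genes of both directions.

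Differences between the regions were counted where both colonized hippocampus pools lay on one side of GF and both cortex pools on the other. With *Gapdh*, 10 genes (11.9%) were higher in the hippocampus and lower in the cortex and 1 (1.19%) had the reverse, and with the mean of the 5 reference genes these were 8 (9.52%) and 3 (3.57%). For a single gene, exchangeable GF labels within independent regions give each of these patterns with a probability of 0.111. The counts of genes higher in the hippocampus and lower in the cortex were near this share. Both references gave 6 wells (7.14%) of the first kind and 0 (0%) of the second. Of these 6 wells, 5 are *Grin2b*, *Grin2d*, *Junb*, *Reln* and *Tnf*, and 1 could not be told from its neighbour and is not named. The split depended on the reference, since the pathway median gave 4 genes higher in the hippocampus and lower in the cortex and 12 the other way. That reference is taken from the same 84 genes, so a shift shared by most of them is removed with it. It moved every gene by 0.225 in the CONV cortex and by 0.36 in the BIF cortex. *Junb*, *Reln* and *Tnf* kept their directions with all 4 references, and *Grin2b* and *Grin2d* did not. The difference between regions was not tested.

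*Tnf* encodes a cytokine that microglia and astrocytes release and that also sets the number of receptors at synapses (chr17:35199367-35202007). Its delta CT was 13.21 in GF, 12.71 in CONV and 12.49 in BIF hippocampus, and 13.28, 13.87 and 14.33 in the cortex. The GF pools of both regions were thus close to each other, and the colonized pools lay on opposite sides of them. At the later ages the log2 fold changes were above 0 in both regions, with 1.99 and 2.35 in the CONV and BIF hippocampus and 2.11 and 0.18 in the cortex at P10, and 0.05 and 0.07 and then 0.57 and 1.23 at P20. Its P4 CTs were between 32.51 and 33.74, in the range where BIF and CONV pools spread most over genes. *Junb* encodes a partner of Fos in the AP-1 factor and had 11.79, 11.45 and 11.04 in the hippocampus and 11.18, 11.91 and 12.00 in the cortex (chr8:84976909-84978748). It was 1.68-fold higher in the BIF hippocampus and 1.66-fold and 1.77-fold lower in the CONV and BIF cortex, at CTs of 30.84 to 32.11.

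The other genes of this kind had smaller differences. *Reln*, whose well was named by place only, encodes an extracellular protein that guides the layering of neurons, and had 3.46 in GF, 3.26 in CONV and 3.34 in BIF hippocampus against 3.33, 3.64 and 3.81 in the cortex. *Grin2b*, whose listed values other wells also fit, encodes the NMDA receptor subunit that is common before birth and in the first weeks. It had 2.86, 2.68 and 2.58 in the hippocampus and 2.56, 2.83 and 2.83 in the cortex, so the colonized pools of both regions lay between the GF pools. *Grin2d*, another early subunit gene, had 4.38, 4.34 and 4.29 and then 3.98, 4.27 and 4.14, with hippocampus differences of 0.04 and 0.09. In the hippocampus all of these log2 fold changes except that of *Grin2b* in BIF, at 0.28, were below the PCR scatter of 0.258.

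**Figure D3:**
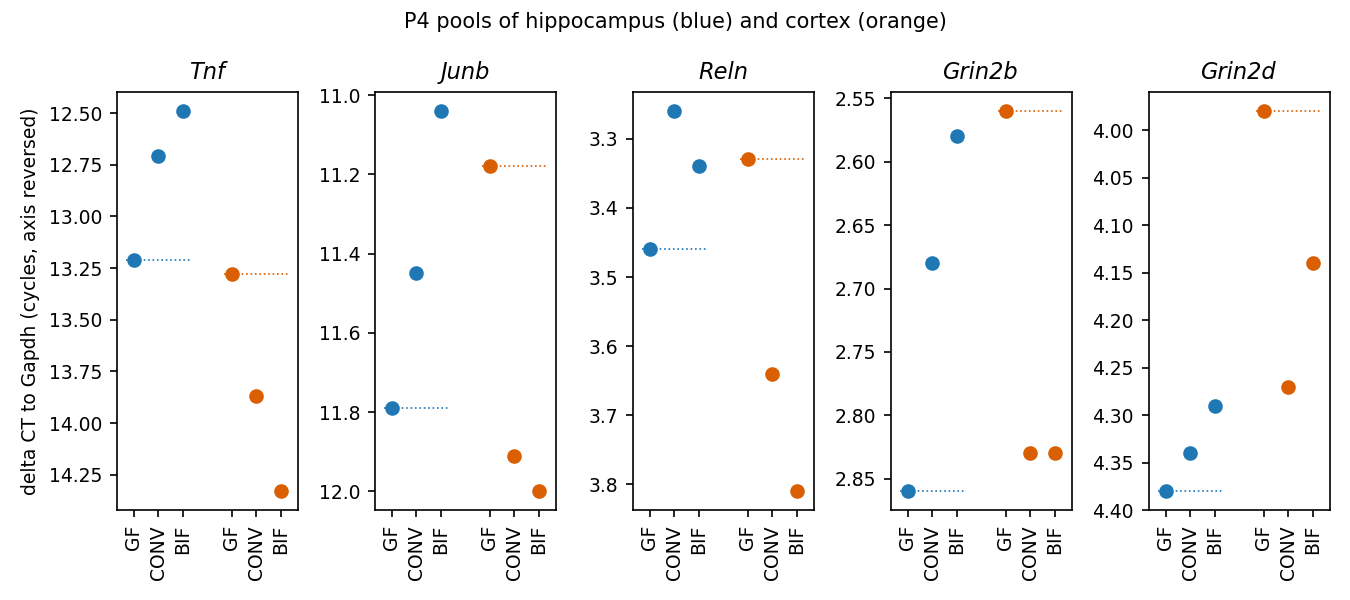
Delta CT to *Gapdh* in cycles (vertical axis, reversed, with its own scale in each panel) of the 5 named genes that were higher in the colonized hippocampus and lower in the colonized cortex, with 1 point per P4 pool and a dotted line at the GF pool of each region. The range of the scale is widest for *Tnf*, from 12.49 to 14.33, and narrowest for *Grin2b*, from 2.56 to 2.86.

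Immune and glial genes were few on the array. Relative to *Gapdh* set to 1000 and with equal primer efficiency assumed, the summed level of the 3 immune genes *Tnf*, *Igf1* (a well named by place) and *B2m* was 103 in GF, 121 in CONV and 103 in BIF hippocampus, and 91.5, 71.4 and 94.8 in the cortex. Under that assumption most of it was *B2m*, with 83.0, 97.4 and 86.0 and then 78.0, 59.5 and 83.6, and *B2m* is itself one of the reference genes. The sum of the glial and vessel genes *Timp1* and *Ppp1r14a* was 5.07, 4.91 and 5.28 in the hippocampus and 2.95, 3.36 and 3.76 in the cortex, with the larger part from *Ppp1r14a* at 4.07, 3.62 and 3.96 and then 1.76, 1.91 and 2.36. The forebrain genes *Camk2a* and *Gabra5* summed to 728, 617 and 703 in the hippocampus and to 357, 236 and 343 in the cortex, of which *Camk2a* made up 518, 420, 532, 212, 142 and 233. The cerebellar genes *Grm4* and *Grin2c* summed to between 6.64 and 11.4, with the larger part from *Grm4* at 6.05 to 10.9. The CONV pool had the lowest sum of its region for the forebrain genes, while for *Gabra5* alone BIF was lowest in the hippocampus, and the part of tissue composition in the results was not tested.

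Counted one comparison at a time, with *Gapdh*, 3 genes (3.57%) were lower by 1.5-fold or more and 1 (1.19%) higher in the CONV hippocampus, and 6 (7.14%) were lower and 2 (2.38%) higher in the BIF hippocampus. In the CONV cortex 11 (13.1%) were lower and 0 (0%) higher, and in the BIF cortex 12 (14.3%) were lower and 2 (2.38%) higher. With the mean of the 5 reference genes, the CONV hippocampus had 4 lower (4.76%) and 1 higher (1.19%) and the BIF hippocampus 3 lower (3.57%) and 3 higher (3.57%). The CONV cortex then had 3 lower (3.57%) and 0 higher (0%), and the BIF cortex 4 lower (4.76%) and 2 higher (2.38%). With the pathway median the BIF cortex had 2 lower and 7 higher. The counts of the cortex and their split therefore depended on the reference. Of the 37 calls, 18 kept their side of the threshold with the mean of the 5 reference genes.

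The median over all 84 genes depended on it as well. With *Gapdh* this log2 fold change was -0.025 for CONV and -0.15 for BIF hippocampus, and -0.32 and -0.27 for the cortex. With the mean of the 5 reference genes the medians were -0.059 and -0.044, and -0.12 and -0.13, and with the pathway median that of the BIF cortex was 0.09. The change of reference moved every gene by -0.034 and 0.11 in the hippocampus comparisons and by 0.20 and 0.14 in the cortex comparisons. *Gapdh* itself was 0.25 higher on the log2 scale in the CONV cortex and 0.18 higher in the BIF cortex than in GF when set against the 4 other reference genes, and -0.042 and 0.13 in the hippocampus. Whether *Gapdh* or the other references moved was not tested.

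The 24 genes that passed 1.5-fold in at least 1 comparison were spread over most roles. Among cell adhesion and matrix genes, *Cdh2*, the gene of N-cadherin, had a delta CT of 5.39, 5.19 and 5.61 in the GF, CONV and BIF hippocampus and of 4.62, 4.89 and 5.38 in the cortex, and was 1.69-fold lower in the BIF cortex. *Pcdh8*, a protocadherin gene, was 1.56-fold lower in the BIF hippocampus and 1.47-fold and 1.43-fold lower in the CONV and BIF cortex, with a log2 fold change of 0.15 in the CONV hippocampus. *Mmp9*, the gene of a matrix protease that TIMP1 inhibits, was 1.65-fold lower in the CONV cortex. Of the 10 genes of this group, 9 had a log2 fold change below 0 in each cortex comparison, near the 77 and 67 of all 84 genes in the CONV and BIF cortex, and the medians were -0.26 and -0.29, which is 0.06 and -0.02 relative to all genes, while that of the BIF cortex was 0.07 with the pathway median. In the CONV hippocampus 7 were above 0, against 39 of all 84 genes, with a median of 0.11, and in the BIF hippocampus the median of -0.09 turned to 0.016 with the mean of the 5 reference genes and to 0.042 with the 4 other than *Gapdh*.

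Of the genes at the postsynaptic side, *Homer1*, a scaffold that links glutamate receptors to calcium stores, had 3.74, 3.68 and 3.88 in the GF, CONV and BIF hippocampus and 2.97, 3.48 and 3.66 in the cortex. It was 1.61-fold lower in the BIF cortex and 1.42-fold lower in the CONV cortex. *Gria2*, the AMPA receptor subunit gene that decides whether the channel lets calcium through, had 2.53, 2.21 and 3.02 and then 1.85, 2.74 and 2.53. Its CONV and BIF hippocampus pools lay on opposite sides of GF, and both cortex pools were above GF in cycles. The 4 AMPA receptor subunits, 3 of them in wells named by place, had a median of -0.50 in CONV and -0.33 in BIF cortex, which is -0.18 and -0.055 relative to all genes, and the second of these turned to 0.035 with the pathway median. In the hippocampus the medians were 0.025 and -0.27, and the first of them turned below 0 with each of the 3 other references.

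The receptor genes *Grm7* and *Grm8*, which encode metabotropic glutamate receptors of the presynaptic side, had log2 fold changes of -0.43 and -0.71 in the BIF hippocampus and of -0.67 and -0.59 in the BIF cortex, of which only the first did not pass the threshold. *Grm8* had a delta CT of 8.73, 8.65 and 9.44 in the GF, CONV and BIF hippocampus and of 7.37, 7.99 and 7.96 in the cortex, and *Grm7* had 3.66, 3.60 and 4.09 and then 3.27, 3.56 and 3.94. *Grm4*, of the same family, had 0.39 in the BIF hippocampus, on the other side of GF. The 7 metabotropic receptors, 3 of them in wells not named by a listed value of their own, had medians of 0.01 and -0.42 in the hippocampus and of -0.36 and -0.25 in the cortex, of which 0.01 turned below 0 with each of the 3 other references and -0.25 turned to 0.11 with the pathway median. Relative to all genes these medians were 0.035, -0.27, -0.04 and 0.02. The 5 NMDA receptor subunits had medians of -0.08 and 0.09 in the hippocampus and -0.29 and -0.16 in the cortex. Relative to all genes these were -0.055, 0.24, 0.03 and 0.11, and the BIF cortex median of -0.16 turned to 0.02 with the 4 reference genes other than *Gapdh* and to 0.20 with the pathway median.

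Neurotrophin genes other than *Bdnf* did not share one pattern. *Ntf3*, the gene of neurotrophin 3, had 6.25, 5.53 and 6.36 in the GF, CONV and BIF hippocampus and 5.32, 5.68 and 5.93 in the cortex, so that it was higher in the CONV hippocampus and lower in both cortex pools. *Ngfr*, the gene of the p75 receptor, was 1.41-fold and 1.59-fold lower in the hippocampus and had log2 fold changes of -0.12 and 0.04 in the cortex. *Ntf5* had 12.20, 13.27 and 14.28 in the hippocampus and 13.66, 14.32 and 13.54 in the cortex, at CTs of 32.52 to 34.64, close to the limit. The median of the 6 genes of neurotrophins and their receptors was -0.20 and -0.41 in the hippocampus and -0.35 and -0.095 in the cortex, and the last of these turned above 0 with each of the other 3 references. In the BIF hippocampus 6 of 6 were below 0, as were 60 of all 84 genes, and 2 were lower by 1.5-fold, against 6 of all genes (7.14%). In the CONV cortex 6 of 6 were also below 0, against 77 of the 84, and 2 were lower by 1.5-fold, against 11 (13.1%).

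Among transcriptional regulators, *Creb1* had a delta CT of 5.31, 5.22 and 5.49 in the GF, CONV and BIF hippocampus and of 4.70, 5.40 and 5.32 in the cortex. Its log2 fold changes were -0.70 and -0.62 in the cortex, and its hippocampus pools lay on both sides of GF. *Klf10* was 1.51-fold lower in the BIF hippocampus and 1.53-fold lower in the BIF cortex, while its log2 fold changes in the CONV pools were 0.05 and -0.03. The 10 genes of this group, 6 of them in wells not named by a listed value of their own, had medians of 0.02 and -0.18 in the CONV and BIF hippocampus and of -0.23 and -0.34 in the cortex, and all but that of the BIF hippocampus had the other sign with at least 1 other reference.

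The 9 immediate early genes, of which *Jun* is in a well named by place, respond within minutes to neuronal activity. *Arc*, whose product removes AMPA receptors from synapses, had 7.71, 7.84 and 7.61 in the GF, CONV and BIF hippocampus and 8.85, 8.99 and 7.95 in the cortex, which made it 1.87-fold higher in the BIF cortex. Together with *Fos* it was one of the 2 genes called higher in that pool. In the BIF hippocampus 8 of the 9 were above 0, against 24 of all 84 genes, with a median of 0.22 that was 0.37 above that of all genes and above 0 with all 4 references. The median was 0.1 when only genes with CTs of 30 or below in all 6 pools were kept. Of the 8 genes above 0, *Fos*, *Egr1*, *Arc* and *Egr4* were within the PCR scatter of 0.258, at 0.02, 0.03, 0.10 and 0.22. *Egr2*, *Egr3*, *Jun* and *Junb* had 0.55, 0.43, 0.33 and 0.75. The CONV hippocampus had 5 of the 9 above 0, near the 39 of all 84. In the CONV cortex 6 of the 9 were below 0 and in the BIF cortex 4, against 77 and 67 of all genes, and the CONV cortex median of -0.14 was above 0 with each of the 3 other references.

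The medians of the kinase, second messenger and phosphatase groups minus those of all genes were between -0.15 and 0.05. The 8 kinases had -0.16 and -0.13 in the hippocampus and -0.35 and -0.22 in the cortex, with both BIF values above 0 under 1 other reference each, and 3 of them were among the genes lower in all 4 comparisons with both references, which are 14 of all 84 genes (16.7%). The 7 genes of second messenger and G protein signalling had -0.07 and -0.26 and then -0.34 and -0.42, each below 0 with all 4 references, and 3 of them, *Gnai1*, *Nos1* and *Plcg1*, were among those 14 genes. The 5 phosphatase subunits had -0.01 and -0.29 and then -0.39 and -0.34, the last being 0.02 with the pathway median. The 5 postsynaptic scaffold genes, which include a well not told from its neighbour, had -0.14 and -0.14 and then -0.31 and -0.16, the last being 0.20 with the pathway median. The 8 other genes had 0.075 and -0.05 and then -0.27 and -0.35, where both BIF medians were above 0 with at least 1 other reference. Among them the kinesin gene *Kif17*, which carries NMDA receptors along dendrites, was 2.30-fold lower in the CONV cortex, with a delta CT of 10.86 against 9.66 in GF and 10.10 in BIF.

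The 12 group medians kept one sign with all 4 references in 8 groups for the CONV hippocampus, 9 for the BIF hippocampus, 10 for the CONV cortex and 2 for the BIF cortex. The direction of a group in the BIF cortex thus rests on the choice of reference more often than in the other pools.

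**Figure D4:**
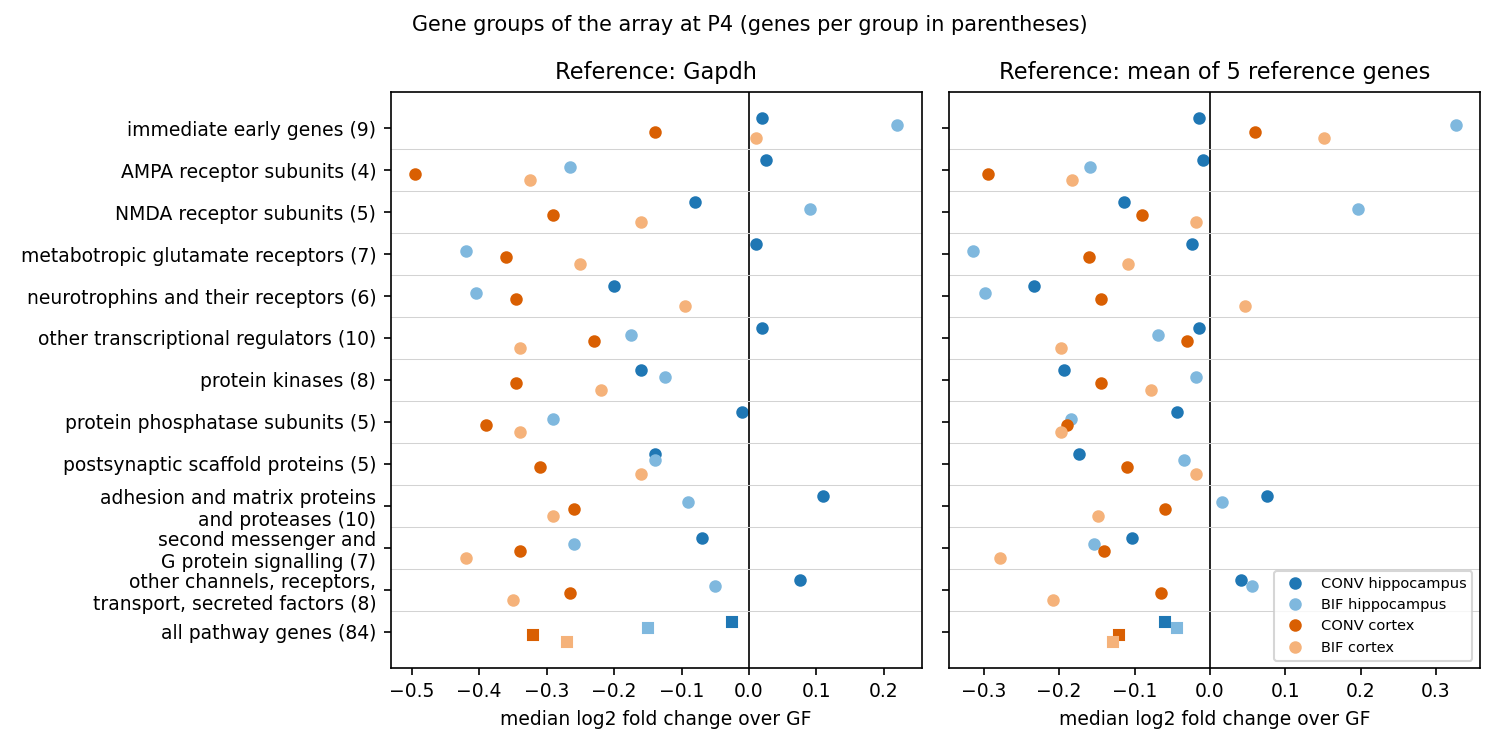
Median log2 fold change of colonized over GF pools at P4 (horizontal axis) for the 12 gene groups and for all 84 pathway genes (squares), with *Gapdh* on the left and the mean of the 5 reference genes on the right, 1 point per comparison. The cortex points of all genes, at -0.32 and -0.27 on the left, lie at -0.12 and -0.13 on the right.

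A direct comparison of the colonized groups does not use the GF pools. In the hippocampus 8 of the 84 genes (9.52%) differed by 1.5-fold or more between BIF and CONV, and in the cortex 10 (11.9%). With *Gapdh*, all 8 in the hippocampus were lower in BIF, whereas 9 of the 10 in the cortex were higher in BIF. The split of the hippocampus depended on the reference, with 5 higher and 6 lower for the mean of the 5 reference genes, and the cortex had 9 higher and 2 lower. *Ntf3*, *Pcdh8*, *Grm8*, *Gria2* and *Adcy8*, an adenylyl cyclase gene, were 1.78-fold, 1.73-fold, 1.73-fold, 1.75-fold and 1.72-fold lower in the BIF than in the CONV hippocampus. In the cortex *Arc* was 2.06-fold, *Bdnf* 1.99-fold, *Egr4* 1.89-fold, *Fos* 1.58-fold and *Camk2a* 1.65-fold higher in the BIF than in the CONV pool. *Adcy8* was again among the genes, but here 1.60-fold higher in BIF. *Adcy8* and *Egr4* were named after their values were seen.

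Set against the rest of the series, the P4 forebrain had fewer calls than the P4 cerebellum. In the cerebellum at P4, 27 genes (32.1%) passed 1.5-fold in either direction in the CONV pool and 30 (35.7%) in the BIF pool. At P10, 7 (8.33%) passed in the CONV and 4 (4.76%) in the BIF hippocampus, and 10 (11.9%) and 3 (3.57%) in the cortex. At P20, 6 (7.14%) and 3 (3.57%) passed in the hippocampus and 10 (11.9%) and 14 (16.7%) in the cortex. The BIF pools thus had more calls at P4 than at P10 in both regions, and the CONV hippocampus had fewer at P4 than at P10 or P20. The GF, CONV and BIF pools of a region shared a plate at P10 and at P20, and in the P4 cerebellum, but not in the P4 forebrain, so these counts differ in design as well. Their differences were not tested. *Grin2a* and *Bdnf*, lower in the forebrain, were lower in the P4 cerebellum too. Their log2 fold changes were -1.15 and -1.16 for *Grin2a* and -1.93 and -1.89 for *Bdnf*. The medians over all 84 genes were also below 0 there, at -0.19 for CONV and -0.275 for BIF. Of the other named lower genes, *Gabra5*, *Gnai1*, *Gria4*, *Nos1*, *Ntrk2* and *Prkg1* were below 0 in both cerebellum comparisons. *Plcg1* had 0.16 and 0.09 there, and *Cnr1*, *Nfkbib* and *Ppp1cc* were above 0 in both as well. *Timp1* had -0.22 and -0.15 and *Fos* -0.07 and -0.68 in the P4 cerebellum, the opposite direction to that of the forebrain.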

How the data were processed

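RNA of the 27 pools was prepared by the authors with Trizol, 2 µg from each of 5 male mice was pooled, and cDNA made from 500 ng of the pooled RNA was run on the array with SYBR Green. The authors set the fluorescence threshold to 0.5 and the detection limit to 35 and deposited a raw CT for each of 96 wells per pool, without normalization. They also deposited fold changes (ratios) of colonized over GF pools, which were not used. The members and lists were chosen with earlier results of these data known.

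Wells carry no gene names. The study's gene list gave 83 pathway symbols and its listed fold regulations 1 more, *Nr4a1*. These 84, in alphabetical order, were assigned to the wells in order, and the order was checked against those listed values within 0.04 on the log2 scale, which served only to name wells. Values placed 50 genes in a single well, 12 fitted more wells, 20 rest on place only and 2 were not told apart. No conflict was found. Of the 89 genes, 88 matched RefSeq (GRCm38.p6) by accession and 1 by symbol.

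Log2 fold changes were minus the delta-delta CT with *Gapdh*, called at 1.5-fold or more as a description. Genes were named if they passed 1.5-fold in at least 1 comparison, were among the 12 with the largest median size of those with one direction under both references, or among at most 8 with opposite directions in the regions, besides members of the lists described. Alternatives were the mean CT of 5 or 4 reference genes, the median CT of the pathway genes, a filter for CTs of 30 or below in all 6 pools, a 2-fold threshold, and directions of at least the technical SD. The directions were also counted with the SD of the reverse transcription control alone, chosen after seeing the data. A few genes of the counts are not reported here by name. The calculations were tested on simulated data. Python 3.11.15, numpy 2.4.6, pandas 2.3.3 and matplotlib 3.10.9 were used. By the methods a plate held 4 sets of each assay, and the labels put at most 4 pools on a plate, which leaves 1 well per gene and pool. Each gene has 1 CT per pool, so the spread between mice was not measured.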

Additional observations from a re-analysis of the deposited data

Results flagged for a closer look

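In 5 named genes both colonized hippocampus pools lay on one side of GF and both colonized cortex pools on the other, with *Gapdh* and with the mean of the 5 reference genes. For a single gene and reference, exchangeable GF labels within independent regions give this pattern in a given direction with a probability of 0.111. The wells with this pattern under both references were 7.14% of the 84. With *Gapdh*, the mean log2 fold change of the hippocampus minus that of the cortex was 1.43 for *Tnf*, 1.32 for *Junb*, 0.555 for *Reln*, 0.50 for *Grin2b* and 0.29 for *Grin2d*. With the mean of the 5 reference genes *Grin2b* had 0.365 and *Grin2d* 0.155, and with the pathway median neither kept its directions. The difference between the regions was not tested, as there was 1 pool per group. The pools of a region share the GF pool, and the 6 pools ran on 6 different plates, so region, GF pool and plate cannot be told apart. *Tnf* and *Junb* have CTs above 30 in all 6 pools, and the well of *Reln* was named by its place only.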

How the results depend on the processing

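With *Gapdh*, 28 genes were lower and 2 higher in all 4 comparisons, and 10 and 1 had opposite directions in the regions. With the mean of the 5 reference genes 17 were lower and 4 higher in all 4, and 3 were lower in the hippocampus and higher in the cortex. Genes lower by 1.5-fold became 3 in the BIF hippocampus and 3 and 4 in CONV and BIF cortex, and the median of the CONV cortex became -0.12. With the 4 reference genes other than *Gapdh* these were 16 lower, 4 higher, 4 lower in the hippocampus and higher in the cortex, then 2, 3 and 3 genes lower by 1.5-fold, a median of -0.07 in the CONV cortex, and 13 genes apart between hippocampus of BIF and CONV. With the pathway median, 15 were lower and 4 higher in all 4, 4 were higher in the hippocampus and lower in the cortex and 12 the reverse, and lower by 1.5-fold were 3 genes in CONV and 2 in BIF cortex, with 7 higher in the latter, and the medians of the CONV and BIF cortex became -0.095 and 0.09. The cause was not tested.

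The filter for CTs of 30 or below left 75 genes, so fewer could pass. It left 7 genes lower in the CONV cortex, 0 higher in the BIF hippocampus, 1 higher in all 4, and 6 genes apart between BIF and CONV in the cortex. At 2-fold, which is stricter, 2 genes were lower in each of the BIF hippocampus, the CONV cortex and the BIF cortex, 0 were higher in either hippocampus pool or the BIF cortex, and 1 gene was apart between BIF and CONV in each region. When each log2 fold change had to reach the technical SD of 0.258, 1 gene was lower and 0 higher in all 4, and 2 and 0 had opposite directions. With the SD of the reverse transcription control alone (0.0568), chosen after seeing the data, 22 were lower and 1 higher in all 4, and 4 and 0 had opposite directions.

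The other counts were within 1.5 times those with *Gapdh*, and the other medians over all genes within 0.182, the scatter of a reference CT in 2 pools. Under these alternatives 48 group medians, all in the cortex, moved by more and 144 did not, and 34 values of named genes moved by more than 0.258 and 374 did not. A change of reference moves every gene of a comparison alike, so these counts do not grade single genes. All 34 were values of the BIF cortex with the pathway median, where the shift was 0.36. No value called at 1.5-fold changed sign. Each group has 1 pool, so no replicate number pairs pools across groups. A fit over all 6 pools with region as a block was not made. Amplification efficiency and the spread between mice were not measured.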
